A study of Sus scrofa with 13 samples.

Results

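The 104 genes described here belong to the families that give ubiquitin ligases their substrates or their frame. They were chosen by symbol: every gene whose name starts with ASB or CUL and a digit, or with FBXO, FBXW, FBXL, KLHL, KBTBD or TRIM, except FBXO30, FBXO32 and FBXO40. They are 104 of the 10283 genes named on the array, covered by 116 probe sets, and where a gene had several, the one with the highest mean level on the 13 arrays was used. By family they are 28 TRIM, 20 FBXO, 20 KLHL, 11 ASB, 8 FBXL, 8 CUL, 5 KBTBD and 4 FBXW genes.

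RNA came from the biceps femoris, a thigh muscle, of German Landrace pigs, on 13 arrays with 1 sample each. The design text of the series calls the replicates biological. The labels only number them within a group and do not say that each is a separate animal. P-values measure the spread between these samples. The 2-day groups held 4 DMD KO and 3 wild-type (WT) samples, and the 3-month groups held 3 samples of each genotype. The DMD KO piglets carried a deletion of exon 52 of DMD, the dystrophin gene, made with an altered bacterial artificial chromosome in primary kidney cells, and were produced from these cells by nuclear transfer. Their muscle was taken at necropsy right after they died, while WT piglets of the same ages were euthanised, so that genotype, cloning and manner of death cannot be told apart in any difference between genotypes. The labels do not say how many donor cell clones were used.

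Ubiquitin ligases attach ubiquitin to chosen proteins and so send many of them to the proteasome. In cullin-RING ligases a cullin holds a RING protein at one end and an adaptor with its substrate at the other: F-box proteins (FBXO, FBXL, FBXW) join CUL1, BTB proteins of the KLHL and KBTBD families join CUL3, and SOCS-box proteins such as the ASB family join CUL5. TRIM proteins mostly carry their own RING. In striated muscle members of these families turn over sarcomere proteins, and several, such as KLHL40 and TRIM32, are known muscle disease genes.

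Values are log2 levels, so a difference of 1 is a 2-fold change. The 6 measured markers of skeletal muscle fibres (ACTA1, MYH1, MYH7, MYLPF, NEB and TNNC2) were present: the percentile of their mean level among all probe sets was 99.3 or above. The array of WT replicate 3 at 2 days stood apart, with a mean correlation to the other arrays of 0.918 against 0.943 to 0.964 for the rest and the lowest 95th percentile of levels, 9.21 against 9.48 to 9.83. The calls at 2 days are given with and without it. The lower quartile of the arrays lay between 6.53 and 6.61, and 13 members had a mean below 6.53. Detection above background was not analysed here. Folds are left out where the lower group lies under that quartile. In whole muscle, fewer cells of a type and less RNA per cell cannot be told apart.

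At 2 days 13 of the 104 genes differed between DMD KO and WT (limma, adjusted p under 0.05), 11 higher and 2 lower in DMD KO. That is 12.5%, beside 9.93% of all probe sets (7.09% higher and 2.85% lower) and 11.4% of all named genes, so the share is near the background. TRIM24, a coregulator of transcription that reads chromatin, was highest at 3.43-fold, followed by FBXL20 at 2.93-fold and KLHL24 at 2.13-fold. The 2 genes that fell were KLHL31 and TRIM31. The median difference over the 104 genes was -0.02, the same as over all probe sets. Groups did not overlap for 28 of the genes (26.9%), beside 24.6% of all probe sets. The count was 8 without DMD KO replicate 3 and 8 without DMD KO replicate 4 at 2 days, and 10 without WT replicate 3, of which 7 were among the 13.

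At 3 months 3 of the 104 genes differed, or 2.88%, beside 5.98% of all probe sets (4.62% higher and 1.36% lower) and 7.36% of named genes. KLHL20 was higher in DMD KO, and ASB15 and KLHL23 were lower. With each array centred on its median the split was 0 higher and 2 lower. Groups did not overlap for 29 of the genes (27.9%), beside 23.0% of all probe sets. Without WT replicate 3 at 2 days, an array that enters this comparison only through the shared estimate of spread, 9 genes were called, 7 higher and 2 lower. Without WT replicate 1 at 3 months 7 were called, 4 higher and 3 lower.

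**Figure D1:**
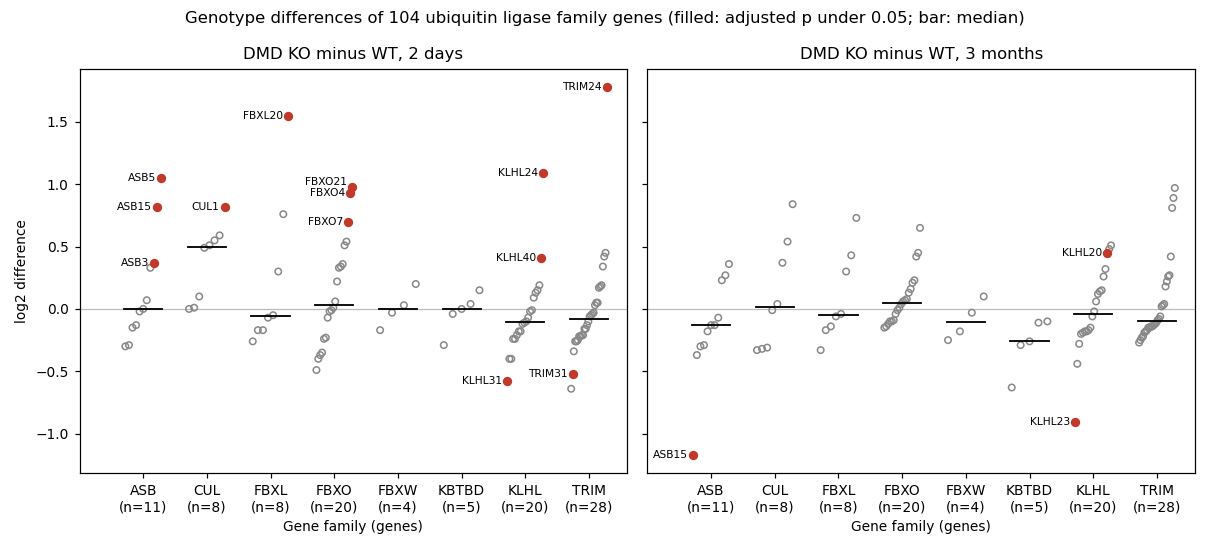
Difference between DMD KO and WT in log2 level (vertical axis) for each of the 104 genes, by family (horizontal axis), at 2 days on the left and 3 months on the right. Each circle is 1 gene, filled where the adjusted p was under 0.05, and bars are family medians; the cullins have a median of 0.50 at 2 days, or 0.15 without WT replicate 3, while at 3 months the medians lie between -0.26 and 0.05.

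The genotype difference itself changed with age in 3 of the 104 genes (2.88%, beside 5.05% of all probe sets, 3.06% higher and 1.99% lower). For ASB15 and KLHL23 the difference was lower at 3 months than at 2 days, and for FBXO5 it was higher. From 2 days to 3 months 2 genes rose in WT (1.92%, beside 2.89% of all probe sets, 1.71% higher and 1.18% lower), KBTBD8 and KLHL23. In DMD KO 9 genes changed with age (8.65%, beside 8.04% of all probe sets, 4.47% higher and 3.57% lower), 4 higher and 5 lower. The shift between ages was called in 7 genes, 5 higher and 2 lower, without WT replicate 3 at 2 days. The difference with age in WT was then called in 4 genes, KLHL23 higher and KLHL13, KLHL9 and TRIM44 lower, so that its balance of directions turned. Without WT replicate 1 or 2 at 3 months the latter count was 1. Without DMD KO replicate 3 at 2 days, or replicates 1, 2 or 3 at 3 months, the count in DMD KO was 5, 2, 2 and 5. The comparisons share arrays, so they are not independent of each other.

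The cullins, the frames of these ligases, had a family median of 0.50 at 2 days (0.15 without WT replicate 3), beside -0.02 over all probe sets, and of the 8 only CUL1 passed the test. CUL1, which carries the F-box proteins, read 7.96, 8.04, 8.04 and 8.22 in DMD KO replicates 1 to 4 and 7.32, 7.57 and 6.84 in WT replicates 1 to 3. All 4 knockout values lay above all 3 wild-type values. The rise was 0.82 ± 0.17 (SE), or 1.76-fold (limma, adjusted p = 0.0122), and 0.62 without WT replicate 3 (adjusted p = 0.0438). At 3 months CUL1 read 7.95, 8.01 and 8.22 in DMD KO and 7.88, 7.28 and 7.39 in WT, again with no overlap, a difference of 0.54 ± 0.19 (SE) with adjusted p = 0.122. Without WT replicate 3 at 2 days or WT replicate 1 at 3 months that difference passed (adjusted p = 0.0414 and 0.0345).

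The differences of CUL2, CUL3, CUL4A, CUL4B and CUL5 at 2 days were smaller without 1 array. CUL2, the frame for the VHL adaptor, differed by 0.59 (adjusted p = 0.0872), CUL3 by 0.49 (adjusted p = 0.148), CUL4B by 0.51 (adjusted p = 0.26) and CUL5 by 0.55 (adjusted p = 0.0868). WT replicate 3 was the lowest of all 13 arrays for CUL1, CUL2, CUL3, CUL4B and CUL5. Without it their differences were 0.35 for CUL2, 0.16 for CUL3, 0.15 for CUL4B and 0.33 for CUL5, and the family median was 0.15. CUL4A, the sister of CUL4B, differed by 0.10 (0.02 without that array). CUL7 and CUL9, the 2 atypical cullins, differed by 0.00 and 0.01, with 95% intervals from -0.22 to 0.23 and from -0.23 to 0.25. Without that array they differed by 0.10 and 0.09.

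At 3 months the cullins went both ways and none passed. CUL4B read 8.01, 7.83 and 8.58 in DMD KO and 7.85, 6.99 and 7.05 in WT, a difference of 0.84 ± 0.30 (SE, adjusted p = 0.145). Its groups met at WT replicate 1. Without that array the difference was 1.12 (adjusted p = 0.0496). With WT replicate 3 at 2 days left out instead it was 0.84 (adjusted p = 0.0397). CUL3, CUL4A and CUL5 were at -0.32, -0.33 and -0.31 (adjusted p = 0.456, 0.228 and 0.441), while CUL2 was at 0.37. A further fit, chosen after the data were seen, had as covariate each array's score on the first component of deviations from group means. There CUL3 (-0.62), CUL4A (-0.47) and CUL5 (-0.57) were called lower (limma, adjusted p = 0.00321, 0.0227 and 0.00926) and CUL4B higher at 0.41 (adjusted p = 0.041). At 3 months that score was -1.13, -2.76 and -33.7 in DMD KO and -14.9, 31.6 and 19.2 in WT. The score is not free of genotype, so these differences are not adjusted for spread within groups alone. With age in WT, CUL3 went from 10.71, 10.69 and 9.72 to 11.32, 10.83 and 11.12, a difference of 0.72 ± 0.22 that did not pass (SE, adjusted p = 0.124).

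**Figure D2:**
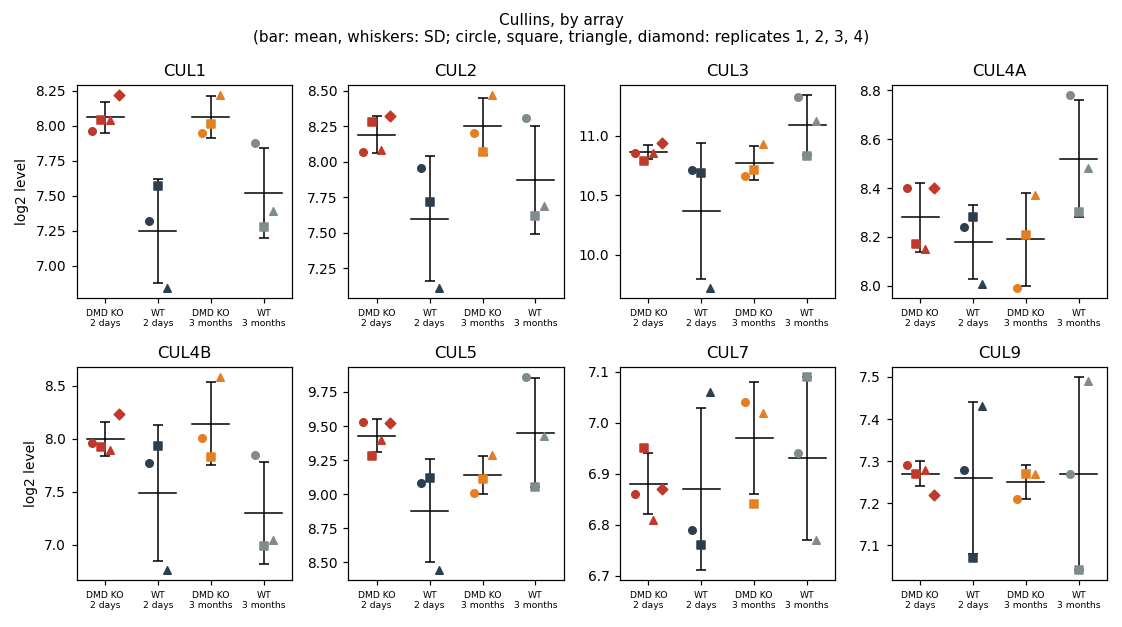
Log2 level of the 8 cullins (vertical axes) in each of the 13 arrays by group (horizontal axis), with group mean and SD. The triangle of WT at 2 days (replicate 3) is the lowest of 13 points for CUL1, CUL2, CUL3, CUL4B and CUL5.

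Several genes that work with the cullins passed the test at 2 days. Of 15 measured genes of the cullin-RING core and of NEDD8, the small modifier that switches cullins on, 4 rose at 2 days and 0 fell, with a median of 0.23 (9.93% of all probe sets were called). DDB1, the link between CUL4 and its adaptors, rose by 0.99 ± 0.12 (SE, adjusted p = 0.000785). Elongin C (ELOC), the link between CUL5 and the ASB proteins, rose by 0.84 (adjusted p = 0.00617), ARIH2, a ligase that acts with CUL5, by 0.64 (adjusted p = 0.013) and DCUN1D1, which helps NEDD8 onto cullins, by 1.31 (adjusted p = 0.0367). At 3 months DDB1 alone of the 15 was called (beside 5.98% of all probe sets), higher by 0.67 (adjusted p = 0.00993). The list's mean level ran from 8.28 to 8.39 in DMD KO at 2 days and from 7.63 to 8.19 in WT, the lowest in WT replicate 3. Without that array 3 of the 15 rose at 2 days, DDB1 (0.91), ELOC (0.63) and ARIH2 (0.45), the list's median was 0.03, and DCUN1D1 differed by 0.73 (adjusted p = 0.0626). At 3 months CAND1 (0.66) and ARIH2 (-0.43) were then called beside DDB1.

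With age DDB1 fell in both genotypes, by 0.79 in WT (adjusted p = 0.00725) and by 1.10 in DMD KO (adjusted p = 0.000142). RNF7, the RING partner of CUL5, rose in both, by 0.70 (adjusted p = 0.0277) and 0.64 (adjusted p = 0.0122), though in WT it missed without WT replicate 3 at 2 days (0.56, adjusted p = 0.0602). ELOC and ARIH2 rose with age in WT, by 0.99 and 0.97 (adjusted p = 0.00709 and 0.00406). Their genotype differences were lower at 3 months than at 2 days, by -1.0 and -1.06 (adjusted p = 0.0236 and 0.00891). Among 7 genes of the COP9 signalosome, which takes NEDD8 off, COPS8 alone was called at 2 days (beside 9.93% of all probe sets). It rose by 0.32 (limma, adjusted p = 0.0267), or by 0.28 with WT replicate 3 left out (adjusted p = 0.0921). None of the 7 passed at 3 months (limma, 0 of 7 called beside 5.98% of all probe sets).

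Of 33 other cullin adaptors outside the 8 families 4 rose and 1 fell at 2 days (9.93% of all probe sets were called), and 0 were called at 3 months (beside 5.98%). SKP2, the F-box protein that removes the cell cycle inhibitor p27, fell by 0.97 ± 0.19 (SE, adjusted p = 0.00758). The 4 that rose were IVNS1ABP (0.88), RHOBTB3 (0.81), DCAF6 (0.58) and KLHDC3 (0.54). Without WT replicate 3 at 2 days SKP2 alone was called at that age (-1.09, adjusted p = 0.0101), and at 3 months IVNS1ABP was called higher and DCAF6, SPOPL and ZYG11B lower. Of 21 ubiquitin-activating and ubiquitin-conjugating enzymes 4 rose and 1 fell at 2 days (beside 7.09% higher and 2.85% lower of all probe sets). UBE2B (1.36), whose mean level of 5.35 lay below the lower quartile of the arrays, UBE2W (0.96), UBE2E3 (0.83) and UBE2D4 (0.31) rose, and UBE2C (-0.57), the partner of the anaphase-promoting complex, fell. Of these only UBE2B (1.0) and UBE2E3 (0.62) were called at 2 days without WT replicate 3. At 3 months 1 rose, UBA6 (0.74), and 2 fell, UBE2D4 (-0.73) and UBE2G1 (-0.65). Of all probe sets 4.62% were called higher and 1.36% lower at that age. UBE2D4 rose with age in WT by 0.89 ± 0.09 (SE, adjusted p = 0.000297), and its genotype difference shifted by -1.04 between ages (adjusted p = 0.000542). The difference also shifted for UBE2B, by -1.79 (adjusted p = 0.0284), and for UBE2G1, by -0.90 (adjusted p = 0.013).

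Among the F-box proteins, the adaptors of CUL1, 4 of 32 rose at 2 days and 0 fell. That is 12.5%, near the 9.93% of all probe sets, and 0 of 32 were called at 3 months (beside 5.98%). FBXL20 is known from the control of a synaptic protein. At 2 days it read 8.57, 8.73, 8.77 and 8.93 in DMD KO and 7.71, 7.51 and 6.37 in WT. Every knockout value lay above every wild-type value. The rise was 1.55 ± 0.27 (SE), or 2.93-fold (adjusted p = 0.00426), and 1.14 without WT replicate 3 (adjusted p = 0.00403). Its second probe set, 15207783, rose by 0.87 (adjusted p = 0.00482). At 3 months FBXL20 read 8.12, 8.17 and 8.66 in DMD KO and 7.89, 7.50 and 7.37 in WT, without overlap and without passing (0.73 ± 0.28, SE, adjusted p = 0.181). That difference passed without WT replicate 3 at 2 days (0.73, adjusted p = 0.0165).

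FBXO21 and FBXO7 rose in newborn knockout muscle and were lower again in knockout muscle at 3 months. FBXO21, a ubiquitin ligase known from wasting muscle, read 8.54, 8.61, 8.58 and 8.67 in DMD KO and 7.93, 7.87 and 7.05 in WT at 2 days, a rise of 0.98 ± 0.19 (SE), or 1.97-fold (adjusted p = 0.00733). The 4 knockout values lay close together, above all wild-type values. At 3 months it read 7.69, 7.65 and 7.96 in DMD KO and 7.92, 7.53 and 7.48 in WT, and the groups overlapped (0.13, adjusted p = 0.74). With age it fell in DMD KO by 0.83 ± 0.19 (SE, adjusted p = 0.0149), a call that ended without DMD KO replicate 1 or 2 at 3 months (adjusted p up to 0.0721). In WT the difference with age was 0.02 (adjusted p = 0.99). The shift of the genotype difference between ages, -0.85, did not pass (adjusted p = 0.11).

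FBXO7, an adaptor tied to the removal of damaged mitochondria and to inherited parkinsonism, read 8.22, 8.45, 8.42 and 8.78 in DMD KO and 7.70, 7.89 and 7.71 in WT at 2 days. It rose by 0.70 ± 0.12 (SE), or 1.63-fold (adjusted p = 0.00409), and by 0.68 without WT replicate 3 (adjusted p = 0.015). At 3 months it read 7.84, 7.90 and 8.03 in DMD KO and 7.79, 7.61 and 7.74 in WT. These groups still did not overlap, at a difference of 0.21 (adjusted p = 0.403). With age FBXO7 fell in DMD KO by 0.54 (adjusted p = 0.0128), up to adjusted p = 0.0604 without DMD KO replicate 1 or 2 at 3 months. In WT its difference with age was -0.05 (limma, adjusted p = 0.944). The shift of its genotype difference between ages, -0.49, did not pass (adjusted p = 0.153).

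FBXO4, known for the turnover of cyclin D1, lay low on the arrays. It read 6.75, 6.66, 6.54 and 7.26 in DMD KO and 5.74, 6.16 and 5.72 in WT at 2 days, a rise of 0.93 ± 0.20 (SE, adjusted p = 0.0118). At 3 months it read 6.40, 6.57 and 6.58 in DMD KO and 5.99, 6.17 and 5.44 in WT, also without overlap (0.65 ± 0.21, SE, adjusted p = 0.101). Both wild-type means, 5.87 and 5.87, lay below the lower quartile of the arrays.

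FBXO5 (EMI1), the inhibitor of the anaphase-promoting complex in dividing cells, was lower in newborn knockout muscle and higher in grown knockout muscle by similar amounts. At 2 days it read 6.63, 6.61, 6.61 and 6.69 in DMD KO and 6.96, 7.07 and 7.08 in WT. The difference, -0.40 ± 0.12 (SE), just missed (adjusted p = 0.0543). At 3 months it read 6.84, 6.79 and 7.31 in DMD KO and 6.74, 6.46 and 6.50 in WT, a difference of 0.42 ± 0.13 (SE, adjusted p = 0.0889). The groups did not overlap at either age. The shift between ages of 0.82 ± 0.18 (SE) passed (adjusted p = 0.0184) and was 0.65 at its lowest when single arrays were left out. The call ended without WT replicate 2 or 3 at 3 months (adjusted p up to 0.0504). SKP2 shifted by 1.24 in the same comparison (adjusted p = 0.0206).

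Fibroblast markers were lower in DMD KO at 2 days and higher at 3 months. Of 8 measured markers 7 fell at 2 days in DMD KO (beside 2.85% of all probe sets). At 3 months 6 rose (beside 4.62%). Their mean level lay between 9.06 and 9.47 in DMD KO and between 10.53 and 10.63 in WT at 2 days, and between 10.82 and 10.88 in DMD KO and between 9.40 and 10.03 in WT at 3 months. Of 11 macrophage markers 0 were called at 2 days (beside 9.93% of all probe sets) and 6 rose at 3 months (beside 4.62%). Their means ran from 7.95 to 8.35 in DMD KO and from 7.20 to 7.44 in WT at 3 months. Of these lists no fibroblast marker and 1 macrophage marker (AIF1) had a mean below 6.53. Of 8 listed markers of satellite cells and regenerating fibres 2 were measured. At 3 months NCAM1 rose by 1.37 (limma, adjusted p = 3e-05), and MYOG differed by 0.34 without passing (adjusted p = 0.057). Their mean ran from 9.03 to 9.34 in DMD KO and from 8.26 to 8.41 in WT. The part of these cells in the results on the ligase genes was not tested.

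The remaining 27 of 32 F-box genes were not called in any of the 5 comparisons. FBXL4, which sits in mitochondria, read 8.24, 8.53, 8.24 and 9.29 in DMD KO and 8.04, 7.81 and 7.59 in WT at 2 days, which differed by 0.76 ± 0.27 (SE) without passing (adjusted p = 0.0894). FBXL22, a protein of the sarcomere, differed by -0.17 at 2 days and -0.14 at 3 months (adjusted p = 0.303 and 0.517). FBXL17, which checks the pairing of BTB proteins, differed by -0.07 and -0.06. Its second probe set, 15266315, differed by -0.31 and -0.18 (limma, adjusted p = 0.0984 and 0.432). The 4 FBXW genes lay between -0.17 and 0.20 at 2 days and between -0.25 and 0.10 at 3 months.

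In the ASB family, adaptors of CUL5, ASB15 was higher in newborn and lower in grown knockout muscle (3 of the 11 genes were called at 2 days and 1 at 3 months, beside 9.93% and 5.98% of all probe sets). ASB15 is expressed mainly in striated muscle. At 2 days it read 9.25, 8.95, 9.00 and 8.91 in DMD KO and 8.51, 8.20 and 7.92 in WT, all knockout values above all wild-type values. The 3-month levels were 7.75, 7.66 and 7.36 in DMD KO and 8.83, 8.37 and 9.08 in WT, with every knockout value below every wild-type value. The difference was thus a rise of 0.82 ± 0.18 (SE), or 1.76-fold, at 2 days (adjusted p = 0.0133). At 3 months ASB15 was lower in DMD KO by 2.26-fold, a difference of -1.17 ± 0.19 (SE, adjusted p = 0.00266).

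The shift of that difference between ages was -1.99 ± 0.26 (SE), its 95% interval ran from -2.55 to -1.43, and it passed (adjusted p = 0.000933). Within DMD KO the gene fell with age by 1.44 ± 0.18 (SE, adjusted p = 0.000281), and its 4 newborn values lay above the 3 later ones. In WT the difference with age was 0.55 ± 0.19 (SE) and did not pass (adjusted p = 0.183). Without WT replicate 3 at 2 days the newborn difference was 0.67 and just missed (adjusted p = 0.0575). The call at 3 months, the fall with age in DMD KO and the shift between ages each held whichever 1 array was left out, with the shift from -2.18 to -1.83. The mean of the 6 fibre markers ran from 11.85 to 12.10 in DMD KO and from 11.8 to 12 in WT at 2 days, and from 11.97 to 12.23 in DMD KO and from 12.22 to 12.47 in WT at 3 months. That mean holds markers of fibre types that moved apart: at 2 days MYH7, the slow myosin, rose by 1.67 (adjusted p = 0.00816) and MYH1, a fast myosin, fell by 0.91 (adjusted p = 0.00615). At 3 months TNNC2, the fast troponin C, fell by 0.61 (adjusted p = 0.0199). The other markers did not pass at that age (limma, adjusted p from 0.0621 to 0.997). They were ACTA1 (-0.45), MYLPF (-0.31), NEB (-0.01), MYH1 (0.00) and MYH7 (0.11). The part of fibre types in the levels of ASB15 was not tested.

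ASB5, also expressed mainly in muscle, read 10.42, 9.93, 10.72 and 10.73 in DMD KO and 9.74, 9.80 and 8.65 in WT at 2 days. Its rise of 1.05 ± 0.29 (SE), or 2.07-fold, passed narrowly (adjusted p = 0.0418). Without WT replicate 3, the lowest array, the difference was 0.68 (adjusted p = 0.164). The call also ended without DMD KO replicate 1, 3 or 4 at 2 days or any DMD KO array at 3 months. Its second probe set, 15238875, differed by 1.11 (adjusted p = 0.0651). At 3 months ASB5 overlapped between genotypes (0.27, adjusted p = 0.655).

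ASB3 read 7.71, 7.72, 7.63 and 7.82 in DMD KO and 7.41, 7.44 and 7.18 in WT at 2 days, a small rise of 0.37 ± 0.11 (SE, adjusted p = 0.0454). That call ended without any 1 of 8 arrays, namely DMD KO replicates 1 to 4 and WT replicates 1 and 3 at 2 days and replicate 2 of either genotype at 3 months (adjusted p up to 0.179). The 8 ASB genes not called at 2 days lay between -0.30 (ASB13) and 0.33 (ASB4). At 3 months the 10 not called lay at or below 0.36 (ASB7). Of the other muscle-enriched members, ASB18 differed by -0.37 at 3 months without overlap (adjusted p = 0.092) and ASB11 by -0.30 (adjusted p = 0.182).

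**Figure D3:**
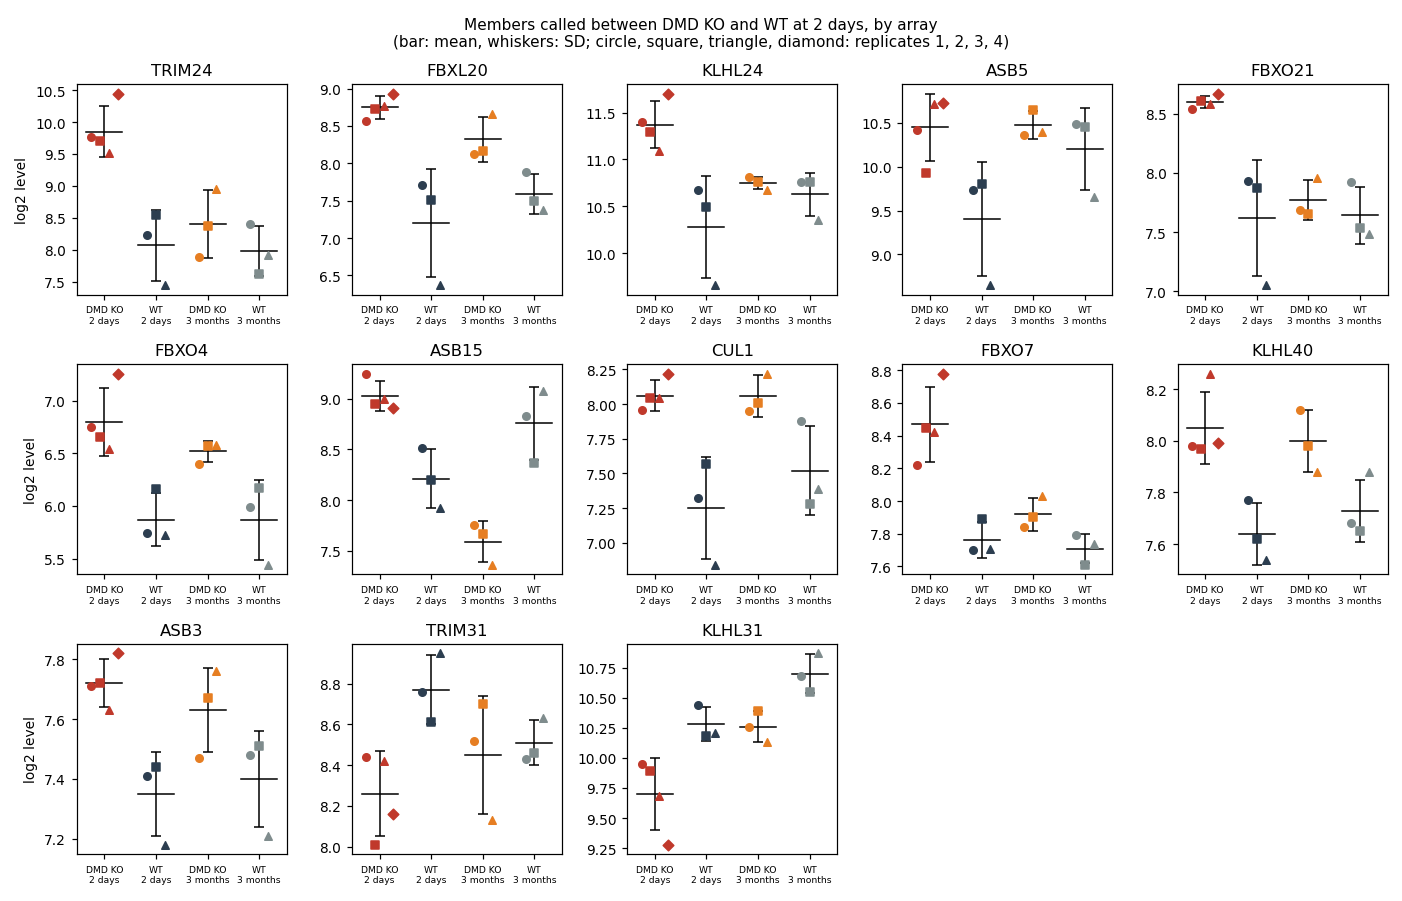
Log2 level (vertical axes) of the 13 genes called between genotypes at 2 days, in each of the 13 arrays by group (horizontal axis), with group mean and SD. In every panel the DMD KO and WT points at 2 days do not overlap, and for ASB15 the order of the genotypes is turned at 3 months.

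Of the 25 BTB-Kelch adaptors of CUL3, 20 KLHL and 5 KBTBD, 2 rose and 1 fell at 2 days (12%, near the 9.93% of all probe sets), and 1 rose and 1 fell at 3 months (8%, near 5.98%). KLHL24, known for the turnover of keratin in skin, read 11.40, 11.29, 11.09 and 11.70 in DMD KO and 10.68, 10.49 and 9.66 in WT at 2 days. It rose by 1.09 ± 0.21 (SE), or 2.13-fold (adjusted p = 0.00832), and by 0.78 without WT replicate 3 (adjusted p = 0.0163). Grown muscle gave 10.81, 10.76 and 10.68 in DMD KO and 10.76, 10.76 and 10.36 in WT, where the groups overlapped (0.12, adjusted p = 0.785). With age its value in DMD KO differed by -0.62, again with no overlap (adjusted p = 0.114, or 0.0143 with WT replicate 3 at 2 days left out).

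KLHL40 and KLHL31, both Kelch proteins of striated muscle, differed in opposite directions. KLHL40, which stabilises nebulin in thin filaments, read 7.98, 7.97, 8.26 and 7.99 in DMD KO and 7.77, 7.62 and 7.54 in WT at 2 days, a rise of 0.41 ± 0.11 (SE), or 1.33-fold (adjusted p = 0.0306). In grown muscle the levels were 8.12, 7.98 and 7.88 against 7.68, 7.65 and 7.88, a difference of 0.26 (adjusted p = 0.231). The newborn call ended without DMD KO replicate 3 or 4 or WT replicate 2 or 3 (adjusted p up to 0.11).

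KLHL31, tied to the upkeep of the sarcomere, read 9.95, 9.89, 9.68 and 9.28 in DMD KO and 10.44, 10.18 and 10.21 in WT at 2 days. It fell by 0.58 ± 0.15 (SE, adjusted p = 0.0329), and was 1.49-fold lower. The 3-month samples gave 10.26, 10.39 and 10.13 in DMD KO and 10.68, 10.55 and 10.87 in WT, still without overlap (-0.44, adjusted p = 0.153). With age it rose in DMD KO by 0.56 ± 0.15 (SE, adjusted p = 0.0403), and in WT the difference was 0.42 (adjusted p = 0.243). The newborn call ended without DMD KO replicate 3 or 4 or WT replicate 1 or 3 (adjusted p up to 0.0962). The call with age ended without any 1 of 6 arrays: DMD KO replicates 3 and 4 at 2 days, DMD KO replicates 1 to 3 and WT replicate 1 at 3 months (adjusted p up to 0.166).

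KLHL23 separated grown wild-type muscle from the other 3 groups. It read 7.03, 7.19, 6.98 and 7.02 in DMD KO and 7.16, 7.23 and 6.85 in WT at 2 days, then 6.85, 7.16 and 6.99 in DMD KO and 8.19, 7.74 and 7.81 in WT at 3 months. All 3 values of grown WT muscle lay above the 10 others. In WT it rose with age by 0.83 ± 0.14 (SE), or 1.78-fold (adjusted p = 0.00709), while in DMD KO the difference was -0.06, with a 95% interval from -0.34 to 0.23. At 3 months it was 1.88-fold lower in DMD KO, a difference of -0.91 ± 0.14 (SE, adjusted p = 0.00191), and at 2 days the difference was -0.02 (adjusted p = 0.918). The shift between ages of -0.89 ± 0.19 passed (SE, adjusted p = 0.0182), and none of these 3 calls was lost when any 1 array was omitted.

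KLHL20, an adaptor tied to autophagy and to the PML protein, was in turn highest in grown knockout muscle. It read 8.44, 8.54, 8.61 and 8.47 in DMD KO and 8.67, 8.69 and 8.23 in WT at 2 days. Levels in grown muscle were 8.94, 9.16 and 9.08 in DMD KO and 8.66, 8.52 and 8.64 in WT. All 3 grown knockout values lay above the 10 others. The rise over WT at 3 months was 0.45 ± 0.12 (SE), or 1.37-fold (adjusted p = 0.0483), and within DMD KO it rose with age by 0.54 ± 0.11 (SE, adjusted p = 0.00994). The genotype call at 3 months ended without any 1 of 11 arrays, all but WT replicates 2 and 3 at 2 days (adjusted p up to 0.168). The call with age ended without DMD KO replicate 2 at 3 months (adjusted p = 0.0561). The shift between ages was 0.46 (adjusted p = 0.162, or 0.0153 with WT replicate 3 at 2 days left out).

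KBTBD8, known from neural crest development, rose with age in both genotypes. It read 5.42, 6.06, 6.13 and 6.53 in DMD KO and 6.64, 6.40 and 5.94 in WT at 2 days, then 6.83, 7.05 and 7.26 in DMD KO and 7.77, 8.09 and 7.17 in WT at 3 months. The values at 3 months lay above those at 2 days in each genotype. The rise was 1.35 ± 0.28 (SE, adjusted p = 0.0253) in WT and 1.01 ± 0.27 (SE, adjusted p = 0.0341) in DMD KO. The WT call ended without WT replicate 2 or 3 at 2 days or WT replicate 1 or 2 at 3 months (adjusted p up to 0.0889). The DMD KO call ended without any 1 of its arrays except replicate 4 at 2 days (adjusted p up to 0.131). Neither genotype difference passed (-0.29 and -0.63, adjusted p = 0.491 and 0.252).

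KLHL28 read 9.14, 9.30, 8.94 and 9.06 in DMD KO at 2 days and 10.08, 10.18 and 9.93 at 3 months, a rise of 0.95 ± 0.25 (SE), or 1.94-fold (adjusted p = 0.0353). That call ended without any 1 of the 7 DMD KO arrays (adjusted p up to 0.13). In WT it read 9.78, 10.04 and 8.71 at 2 days and 10.31, 9.75 and 10.18 at 3 months, with WT replicate 3 at 2 days far below the others of its group. Without that array KLHL28 was lower in newborn DMD KO by -0.80 (adjusted p = 0.0136), against -0.40 with it (adjusted p = 0.317). KLHL33 and KBTBD12, other members known from muscle, differed by -0.18 and 0.00 at 2 days and by -0.19 and -0.26 at 3 months, and none of these passed.

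**Figure D4:**
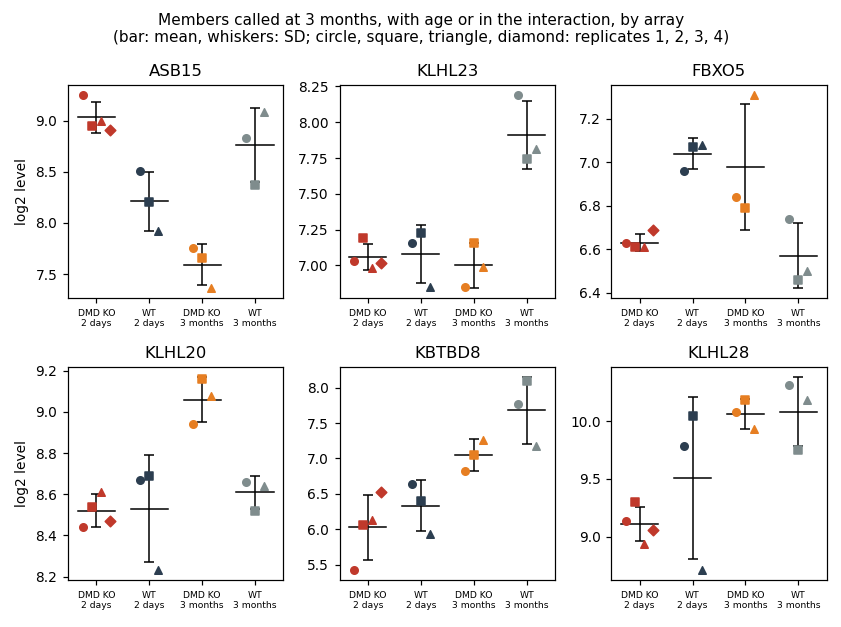
Log2 level (vertical axes) of 6 genes in each of the 13 arrays by group (horizontal axis), with group mean and SD. ASB15 and FBXO5 turn their genotype order between ages, KLHL23 stands apart in WT at 3 months, KLHL20 stands apart in DMD KO at 3 months, and KBTBD8 lies higher at 3 months in both genotypes.

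Among the TRIM proteins, the largest family, at 2 days 1 of 28 rose and 1 fell (beside 9.93% of all probe sets called), and at 3 months 0 of 28 were called (limma, beside 5.98% of all probe sets). TRIM24 read 9.76, 9.71, 9.52 and 10.44 in DMD KO and 8.23, 8.54 and 7.45 in WT at 2 days. Its rise of 1.78 ± 0.31 (SE), or 3.43-fold, was the highest of the 104 genes (adjusted p = 0.00479), and was 1.47 without WT replicate 3 (adjusted p = 0.0179). By 3 months the levels were 7.89, 8.37 and 8.95 in DMD KO and 8.41, 7.63 and 7.92 in WT, and the groups overlapped (0.42, adjusted p = 0.519). Within DMD KO it fell with age by 1.45 ± 0.31 (SE, adjusted p = 0.0112), a call that ended without DMD KO replicate 1 at 3 months (adjusted p = 0.0622). In WT the difference with age was -0.09. The shift between ages was -1.36 ± 0.46 and did not pass (SE, adjusted p = 0.128).

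TRIM31, a ligase of the gut epithelium and of inflammasome control, read 8.44, 8.01, 8.42 and 8.16 in DMD KO and 8.76, 8.61 and 8.95 in WT at 2 days. It fell by 0.52 ± 0.15 (SE, adjusted p = 0.0456), a call that ended without any 1 of 9 arrays: DMD KO replicates 2 to 4 and WT replicates 1 and 3 at 2 days, DMD KO replicate 1 and WT replicates 1 to 3 at 3 months (adjusted p up to 0.173). Its second probe set, 15308133, differed by -0.09 (adjusted p = 0.754). The probe sets of TRIM31 thus disagree in size.

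Of 7 measured TRIM genes of innate immunity TRIM31 was the 1 called, and the others lay between -0.26 (TRIM10) and 0.18 (TRIM40) at 2 days. Interferons induce several TRIM genes. Of 23 measured interferon-response genes limma called 0 at either age (beside 9.93% of all probe sets at 2 days and 5.98% at 3 months). Their median difference was 0.33 at 2 days (0.78 without WT replicate 3) and -0.16 at 3 months. Their mean level differed widely within groups, from 6.97 to 8.34 in DMD KO and from 6.65 to 7.66 in WT at 2 days. The mean of the 7 TRIM genes ran from 7.07 to 7.31 in DMD KO and from 7.31 to 7.49 in WT.

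The 3 measured TRIM genes with known roles in muscle did not pass between genotypes. TRIM55 (MuRF2), a ligase of the sarcomere's M-band region, read 8.49, 8.88, 8.93 and 8.67 in DMD KO and 8.58, 8.51 and 7.87 in WT at 2 days (0.42, adjusted p = 0.122). It fell with age in DMD KO to 8.05, 8.33 and 8.02, by 0.61 ± 0.16 (SE, adjusted p = 0.0387). That call ended without any 1 of 8 arrays: DMD KO replicates 2 to 4 at 2 days, DMD KO replicates 1 to 3 and WT replicates 2 and 3 at 3 months (adjusted p up to 0.136). TRIM72 (MG53), which patches torn fibre membranes, differed by -0.13 at 2 days and -0.22 at 3 months, with 95% intervals from -0.37 to 0.11 and from -0.48 to 0.04. TRIM32, a gene of limb-girdle muscular dystrophy, differed by -0.34 and -0.27 (adjusted p = 0.177 and 0.415). TRIM63 (MuRF1) and TRIM54 (MuRF3) were not analysed here.

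Just outside the threshold at 3 months lay TRIM44 (0.89, adjusted p = 0.0602) and KLHL2 (0.51, adjusted p = 0.0861). KLHL2, a Kelch adaptor for the WNK kinases, read 7.55, 7.80 and 8.14 in DMD KO and 7.64, 7.11 and 7.20 in WT at that age, with overlap, and passed without WT replicate 1 (0.67, adjusted p = 0.0196). TRIM59 read 7.43, 7.03 and 7.71 in DMD KO and 6.90, 6.07 and 6.28 in WT at that age (0.97 ± 0.32, SE, adjusted p = 0.113), and 5.99, 6.76, 6.49 and 6.54 against 7.20, 7.72 and 6.35 at 2 days (-0.64, adjusted p = 0.189). Its shift between ages, 1.62 ± 0.44 (SE), just missed (adjusted p = 0.0579) and passed without WT replicate 3 at 2 days (1.99, adjusted p = 0.00883). TRIM44 read 10.18, 10.14 and 10.24 in DMD KO and 9.41, 8.98 and 9.50 in WT at 3 months, a difference of 0.89 ± 0.25 (SE, adjusted p = 0.0602). Without WT replicate 3 at 2 days it passed (adjusted p = 0.000829). At 2 days TRIM44 lay between 9.99 and 10.12 in DMD KO and at 10.11, 10.16 and 8.96 in WT. These 3 genes were picked out after their values were seen.

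For 10 of the 11 genes that rose at 2 days WT replicate 3 was the lowest wild-type array, as the plots by array show. Without it 7 of the 13 calls remained: CUL1, FBXL20, FBXO21, FBXO4, FBXO7, KLHL24 and TRIM24. The same 7 held whichever single array was left out. Those lost without WT replicate 3 were ASB15, ASB3, ASB5, KLHL31, KLHL40 and TRIM31, with differences of 0.67, 0.29, 0.68, -0.61, 0.36 and -0.43. KLHL13, KLHL28 and TRIM59 were called lower in DMD KO in their place.

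**Figure D5:**
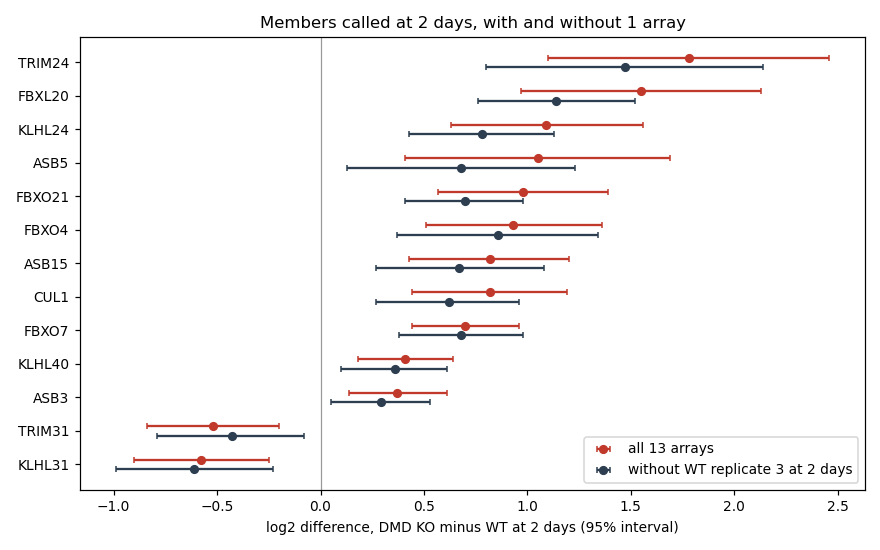
Difference between DMD KO and WT at 2 days in log2 level (horizontal axis) with its 95% interval for the 13 called genes (vertical axis), from all 13 arrays and without WT replicate 3 at 2 days. Differences of the genes that rose are smaller without that array, as for ASB5 (1.05 and 0.68), and no sign changes.

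Some members lie side by side in the pig genome (RefSeq gene table of Sscrofa11.1, 99 of 104 genes matched by gene number). TRIM40, TRIM10, TRIM15 and TRIM26 follow each other with 0 protein-coding genes between, and differed by 0.18, -0.26, -0.16 and -0.16 at 2 days. FBXO2, FBXO44 and FBXO6, which lie next to each other, differed by -0.35, -0.37 and -0.02, and ASB9 and ASB11 by -0.02 and 0.00. None of these genes was called in any comparison. Of 12 members with a second probe set 4 had identical values in both (FBXL19, FBXL7, FBXO2 and KLHL15), which leaves 8 with a second reading. Of these, FBXL20 was called at 2 days in both probe sets, and ASB5 and TRIM31 in 1 of the 2. Some uncalled readings differed too. The first and second probe sets gave 0.49 and 0.81 for CUL3 at 2 days. They gave -0.07 and -0.31 for FBXL17, and 0.22 and -0.33 for FBXO33.

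The pooled SD within groups ran from 0.07 to 0.48 over the 104 genes with a median of 0.17, beside 0.17 over all probe sets. TRIM13 (0.48), TRIM24 (0.47), TRIM59 (0.46) and ASB5 (0.44) varied most within groups.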

How the data were processed

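Total RNA of 13 muscle samples was labelled with biotin and measured on whole-transcript arrays. Per the submitters' processing notes, the authors used Affymetrix Power Tools. Its version and settings are not named in the labels. The deposited values were taken as log2 levels from their range of 2.81 to 13.79. Array medians lay between 7.32 and 7.38, and no further normalization was applied. Arrays give no counts, so their number limits the precision.

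Of 21893 probe sets 11028 carried 1 symbol, 418 several and 10447 none. Among those with several, 4 name a member (one of FBXO10, FBXO3, FBXL21 and FBXO31) and were left out. limma 3.58.1 in R 4.3.3 (lmFit, eBayes) was fitted to every probe set over 4 groups, with 9 residual degrees of freedom. Tests were two-sided, with Benjamini-Hochberg adjustment over all probe sets of a comparison and a threshold of 0.05. The code was tested on simulated data with independent noise, which hold no deviation shared across the probe sets of an array.

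Members and lists were chosen with earlier results of these data known. Named genes were members called between genotypes, in the interaction or with age, cullins, muscle members, and called members of the other lists. Naming each family's brightest and dimmest gene was dropped, since members of a family are not ranked by level here. Alternatives were fits on the compared groups alone, trend and robust eBayes, quantile normalization, median centring, a level filter, the dimmest probe set per gene, a replicate block and leaving out each array. A covariate was chosen after seeing the data. It was each array's score on the first principal component of deviations from group means (44.9% of their variance). Scores were computed from levels centred on each probe set's mean over all arrays, so they still hold group differences. At 2 days they ran from -17.1 to -5.68 in DMD KO and from -10.9 to 61.1 in WT. At 3 months they ran from -33.7 to -1.13 and from -14.9 to 31.6. Promoter motifs were not analysed, and no sequences were used here.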

Additional observations from a re-analysis of the deposited data

Results flagged for a closer look

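For 3 genes the genotype difference itself differed between ages by limma's interaction test: ASB15 (-1.99, adjusted p = 0.000933), KLHL23 (-0.89, adjusted p = 0.0182) and FBXO5 (0.82, adjusted p = 0.0184). In KLHL40 DMD KO replicate 3 at 2 days stood apart, at 8.26 against 7.97 to 7.99 in the other 3, with a gap of 0.91 of the group's range. It was the 1 such case among 35 genes looked at in this way, where chance gives about 1 in 20.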

How the results depend on the processing

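The number of members called was 13 at 2 days, 3 at 3 months, 2 with age in WT, 9 with age in DMD KO and 3 for the shift between ages. With single arrays left out it ran from 8 to 17, 2 to 9, 1 to 4, 2 to 11 and 2 to 7. With each array's component score as a covariate it was 9 at 3 months, 10 and 15 with age in WT and DMD KO, and 11 for the shift. That score also differs between groups, so these counts are not adjusted for spread within groups alone. On the compared groups alone, 0 members were called with age in WT by limma (9 members at an unadjusted p under 0.05), and the shift gave 5 calls after quantile normalization. Among probe sets above the median level the counts were 0 with age in WT (7 members at an unadjusted p under 0.05, limma) and 1 for the shift. That filter removed KLHL23 (mean 7.25), KBTBD8 (6.71) and FBXO5 (6.79), which lie under the median level of 7.37, so these counts do not test their calls. With the replicate block the counts were 7, 2, 2, 2 and 1. Deviations of same-numbered samples had correlations of -0.20, 0.00 and -0.03 at 2 days and -0.35, 0.31 and -0.15 at 3 months. Those of differently numbered samples ran from -0.16 to 0.23 and from -0.41 to 0.48. So few values cannot exclude pairing, but the labels name no pairs, and the numbers are not taken as pairs. Other settings left each count within 1.5 times. Of the calls, 6 of 13 at 2 days (FBXL20, FBXO21, FBXO4, FBXO7, KLHL24 and TRIM24), 2 of 3 at 3 months (ASB15 and KLHL23), 0 of 2 and 1 of 9 (ASB15) with age in WT and DMD KO, and 1 of 3 for the shift (ASB15) held under every alternative that gave them a value, and no called difference changed sign. The cause of the other changes was not tested. Uncalled differences are less firm: 37 of 91 at 2 days and 33 of 101 at 3 months changed sign under some alternative. With 3 or 4 arrays per group, a difference that misses the threshold is not shown to be absent.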
